A study of Mus musculus with 32 samples.

Results

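The genes described here encode proteins that build microtubules and cilia or move cargo along them. They are the BBSome and intraflagellar transport (IFT) genes, the kinesins and kinesin light chains, the cytoplasmic, light-chain and axonemal dyneins, the alpha, beta and gamma tubulins and the tubulin tyrosine ligase-like (Ttll) enzymes. Members were chosen by gene symbol, with earlier results of these data known. The symbol had to begin with Ift, Bbs, Kif, Klc, Tuba, Tubb or Tubg followed by a digit, or with Dync, Dynl, Dnah, Dnai or Ttll. This gave 103 of 20794 probes and 71 of 9030 named genes. By role they were 4 BBSome genes, 11 IFT genes, 2 kinesin-2 motors, 3 kinesin light chains, 5 cytoplasmic dynein chains, 6 dynein light chains, 3 axonemal dyneins, 10 transport kinesins, 7 mitotic kinesins, 5 Ttll enzymes and 15 tubulins.

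Total RNA from organs of sighted C3H males was compared on 2-colour cDNA arrays with RNA of C3H males labelled pde6b-. Pde6b encodes a subunit of the rod phosphodiesterase, and C3H mice without it have an inherited degeneration of the rods. The series' design text names the sighted line seh and counts 6 males. Both lines are C3H, no treatment is named, and the sources used here give no ages. The control of each organ was 1 pool of RNA from 6 males, so a test of the ratio against 0 leaves out the spread among control mice. Brain and heart used 1 set of control mice and the eye another. There were 12 eye, 12 brain and 8 heart arrays. Consecutive arrays with opposite dyes were averaged to a replicate, giving 6 replicates in eye, 6 in brain and 4 in heart. Which arrays came from 1 animal is not labelled, so p-values reflect only the spread among these replicates, part of which may be technical.

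A rod's light-sensing outer segment is a modified primary cilium, joined to the cell body by a thin connecting cilium through which all its proteins must pass. Large IFT trains run along the ciliary microtubules, outward by kinesin-2 and back by cytoplasmic dynein 2. The BBSome is a coat-like adaptor that rides these trains and exports membrane proteins from the cilium, and its loss in humans and mice leads to photoreceptor degeneration. Tubulins form the tracks, the Ttll enzymes add side chains to them, and the other kinesins and cytoplasmic dynein carry cargo in the rest of the cell or move chromosomes.

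Values are given as the log2 ratio of sighted to control signal, in which 1 unit is a doubling. Its direction rests on the rod genes and is therefore called likely, not stated. In the eye all 10 measured rod markers were higher in sighted RNA, with a median of 4.84 over the genes and replicate medians between 4.60 and 5.05. No probe is named Pde6b, so the mutated gene itself was not checked. A 2-colour ratio gives no level, so whether a marker is absent from an organ cannot be read from these data. Missing values made up 1.62 to 5.10% of an eye array, 1.01 to 5.05% of a brain array and 5.96 to 61.6% of a heart array. In a whole organ, fewer cells of a type and less RNA per cell cannot be told apart. The number of arrays limits the precision.

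In the eye, 68 of the 71 members could be tested and 28 of them differed between sighted and control RNA. A total of 23 were higher and 5 were lower in sighted eyes at an adjusted p under 0.05, and 33 had an unadjusted p under 0.05. Across all 15874 genes and unnamed probes tested in the eye, 15.9% were called higher and 11% lower, together 26.8%, and 37.9% had an unadjusted p under 0.05. The median of the 68 members was 0.11, against 0.03 over everything tested. The calls were unevenly spread over the roles. All 4 BBSome genes and 9 of 11 IFT genes were higher and none of these 15 was lower. Of the 53 tested members outside these groups, 10 were higher and 5 lower, and their median was 0.06. The 5 lower calls became 3 without replicate 3 or 5, and 0 with every array taken on its own or with only the arrays that had sighted RNA in Cy5. With sighted RNA in Cy3 only, the higher calls kept were those of the 4 BBSome genes, Ift74 and Ift81. The median of all genes was -0.22 in that setting. Dnah5, Kif12 and Tubb3 had too few values to test.

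**Figure D1:**
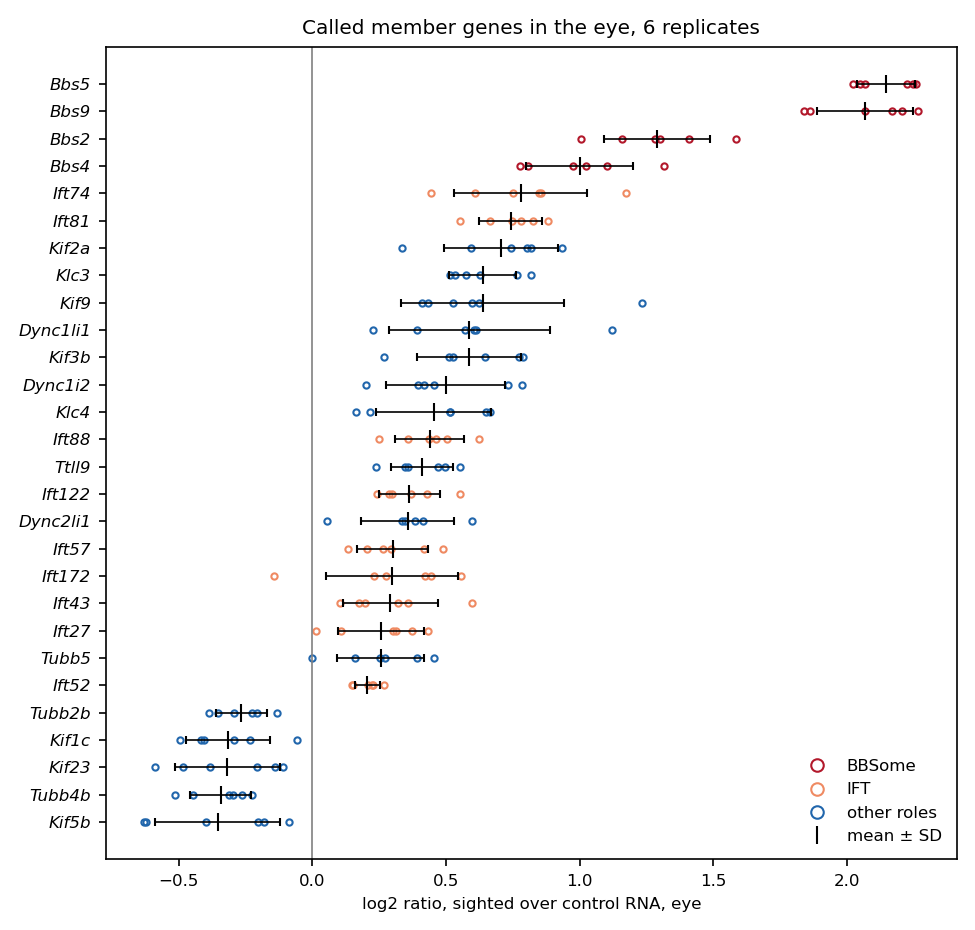
Called member genes in the eye. Each open circle is the log2 ratio of sighted over control RNA in 1 of 6 replicates, and the black marks give the mean ± SD. Circles are coloured by role. Bbs5 and Bbs9 lie near 2 in every replicate, and Bbs2 and Bbs4 lie at 1.29 and 1.00 on average. The 5 genes called lower lie between -0.27 and -0.35 on average.

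The BBSome genes had the largest differences among the members, and Bbs5 and Bbs9 led. Bbs5, a subunit that binds phosphoinositides at the membrane, ranged from 2.02 to 2.26 over the 6 replicates with a median of 2.15. Its mean was 2.15 ± 0.11 (SD, n = 6), a 4.42-fold higher signal in sighted eyes (limma, adjusted p = 1.94e-07). Bbs9, a core scaffold subunit, ranged from 1.84 to 2.27 with a median of 2.12, and its mean was 2.07 ± 0.18 (4.19-fold, adjusted p = 7.72e-07). The replicates of the 2 genes overlapped, and no replicate of either came near 0.

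Bbs2 and Bbs4 rose by less. Bbs2, another core subunit, ranged from 1.01 to 1.58 with a median of 1.29 and a mean of 1.29 ± 0.20 (2.45-fold, adjusted p = 1.65e-05). Bbs4, which links the BBSome to centriolar satellite proteins, ranged from 0.78 to 1.32 with a median of 1.00 and a mean of 1.00 ± 0.20 (2.00-fold, adjusted p = 7.55e-05). Every replicate of Bbs2 lay below every replicate of Bbs9, while the ranges of Bbs2 and Bbs4 overlapped. Each of the 4 genes had 1 probe. All 4 calls were kept in each of the 17 alternative settings of the eye test.

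Likeness to Bbs5 was measured over the 6 eye replicates as the root mean square distance on the log2 scale. Bbs9 was by far the nearest member, at 0.12. Bbs2 followed at 0.87, Bbs4 at 1.17, Ift74 at 1.38 and Ift81 at 1.41. The distance takes in both the height of the ratio and its course over the replicates.

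Of the 11 IFT genes 9 rose and 2 did not pass the test, with a median of 0.30 over the 11. Ift74 and Ift81, whose proteins pair in the IFT-B complex and bind tubulin, had the largest differences. Ift74 ranged from 0.44 to 1.17 with a median of 0.80, and its mean was 0.78 ± 0.25 (1.72-fold, adjusted p = 0.000583). Ift81 ranged from 0.55 to 0.88 with a median of 0.76, and its mean was 0.74 ± 0.12 (1.67-fold, adjusted p = 9.58e-05). All 6 replicates of both genes were above 0, and their ranges overlapped. Both calls were kept in all 17 alternative settings.

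Ift88, the IFT-B subunit whose hypomorphic mouse allele causes polycystic kidneys and short photoreceptor outer segments, ranged from 0.25 to 0.62 with a median of 0.45 and a mean of 0.44 ± 0.13 (adjusted p = 0.00164). Ift122, of the IFT-A complex that serves return transport, ranged from 0.24 to 0.55 with a median of 0.34 and a mean of 0.36 ± 0.11 (adjusted p = 0.00339). Both calls, and that of Ift57 at 0.30 ± 0.13 (adjusted p = 0.0107), held in all 6 fits that left out 1 replicate. The calls of Ift88, Ift122 and Ift57 were lost with sighted RNA in Cy3 only.

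The calls of Ift172, Ift43, Ift27 and Ift52 were lost when single replicates were left out. Ift172 had a mean of 0.30 ± 0.25 with replicate 5 at -0.14 and the others above 0 (adjusted p = 0.0474), and its call held in only 1 of the 6 fits that left out a replicate, the one without replicate 5. Ift43 had a mean of 0.29 ± 0.18, Ift27 of 0.26 ± 0.16 and Ift52 of 0.20 ± 0.05. Ift43 lost its call without replicate 1, 3 or 6, Ift27 without replicate 1, 3, 5 or 6, and Ift52 without replicate 3, 4, 5 or 6. Ift46 at 0.11 ± 0.15 (adjusted p = 0.293) and Ift20 at 0.09 ± 0.13 (adjusted p = 0.336) did not pass the test. Ift20 is the IFT-B subunit that also sits at the Golgi.

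The replicate medians of the 2 ciliary groups show how far the differences varied. The BBSome median over its 4 genes lay between 1.44 and 1.88 in the 6 eye replicates. The IFT median over its 11 genes lay between 0.17 and 0.49. The median of all genes tested lay between -0.10 and 0.14 in the same replicates, so the lowest IFT median was above the highest median of all genes.

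Promoter sequence is shown for these genes because the RFX transcription factors, which bind an inverted repeat called the X-box, are known regulators of ciliary genes. RefSeq windows (GRCm38.p6) of 300 bases, 250 before and 50 from an annotated transcript start onward, were at hand for 60 of the 71 members. In 25 of the 54 members with 1 window, that start was also the annotated start of the gene. A gene with more than 1 window was counted if any of them held the motif. GTTGCC, 1 arm of the X-box, was searched on both strands (reverse complement GGCAAC). It occurred in 14.1% of the 27025 genes with a window and in 18 of the 60 members (30.0%). Of the 20 members called higher in the eye that had a window, 10 held it (50.0%), against 8 of 37 members that were lower or not called (21.6%). Among the IFT and BBSome genes it was 5 of 13 (38.5%). Base composition was not matched and these shares were not tested. The core TAATCC (reverse complement GGATTA) of the photoreceptor factor CRX occurred in 8.14% of all genes, in 5 of 60 members (8.33%), in 1 of 20 members called higher (5.0%) and in 0 of 13 IFT and BBSome genes. The motifs do not overlap each other in the sequences printed.

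The matches to GTTGCC in the members called higher are printed in the direction of the match, with 8 bases before it and 16 after it where the window reaches that far. Capitals mark the match.
Bbs5, chr2:69647205-69647220, plus strand: gccggcgcGTTGCCtt
Ift57, chr16:49699199-49699228, plus strand: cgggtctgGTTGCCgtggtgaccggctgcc
Ift57, chr16:49699226-49699255, plus strand: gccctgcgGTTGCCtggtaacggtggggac
Ift88, chr14:57424076-57424105, minus strand: gcccagccGTTGCCaggcgcgactccaagg
Ift172, chr5:31291093-31291122, minus strand: gcactcacGTTGCCtgtgcgtcagcggtta
Ift27, chr15:78174069-78174098, minus strand: tgatgatgGTTGCCaggagcctgtttggcg
Dync1i2, chr2:71211692-71211721, plus strand: ggcgcctgGTTGCCgggacttgaagttctc
Klc3, chr7:19404198-19404227, minus strand: gggcgtgcGTTGCCtccatcggccccgccc
Kif2a, chr13:107022065-107022089, plus strand: gccGTTGCCatcacctcatccggag
Kif9, chr9:110476959-110476988, plus strand: ggcttcctGTTGCCatggcgactgtgtaca
Ttll9, chr2:152962351-152962380, minus strand: ttggaagaGTTGCCcacgtcagtcgattgc
Ttll9, chr2:152962466-152962495, plus strand: ctcctttgGTTGCCgtagcaacgagacgca

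In Ift57, Kif9 and in the Ttll9 match on the plus strand the other arm of the X-box followed, here written as GNNAC 2 or 3 bases after GTTGCC. These letters were chosen after the sequences were seen. Searched on both strands, the pair of arms occurred in 1.96% of all genes with a window and in 7 of 60 members (11.7%). The 7 were Ift57, Kif9 and Ttll9, called higher, Kif23, called lower, and Dynlrb2, Kif17 and Ttll3, not called. The sites of Kif17 and Dynlrb2 are given for comparison.
Kif17, chr4:138262170-138262199, plus strand: tcacggagGTTGCCcagcaacggcgaacgc
Dynlrb2, chr8:116504956-116504985, plus strand: cctgcctgGTTGCCtagcaacgggggaagc

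The 250 bases before the start are printed for Bbs9, the member nearest to Bbs5 in its ratio, and for Ift57, which like Ttll9 had 2 matches. Capitals again mark GTTGCC on either strand. Bbs9 held no match in its whole window, and Ift57 held both of its matches within 87 bases of the start.
Bbs9, chr9:22475465-22475714, plus strand: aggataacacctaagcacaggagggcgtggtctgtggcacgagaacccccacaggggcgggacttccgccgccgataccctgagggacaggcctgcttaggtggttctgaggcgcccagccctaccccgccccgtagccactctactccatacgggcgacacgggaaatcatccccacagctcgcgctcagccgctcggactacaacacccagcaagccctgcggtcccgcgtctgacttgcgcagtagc
Ift57, chr16:49699044-49699293, plus strand: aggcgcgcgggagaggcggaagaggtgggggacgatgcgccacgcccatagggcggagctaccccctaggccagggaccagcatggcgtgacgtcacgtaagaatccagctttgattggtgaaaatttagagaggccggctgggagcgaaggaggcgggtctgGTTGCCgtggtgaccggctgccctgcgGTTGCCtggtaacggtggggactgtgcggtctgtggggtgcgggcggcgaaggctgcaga

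Of the motors that drive or return IFT trains, Kif3b and Dync2li1 were higher in sighted eyes. Kif3b, a motor subunit of heterotrimeric kinesin-2, ranged from 0.27 to 0.79 with a median of 0.59 and a mean of 0.59 ± 0.20 (1.50-fold, adjusted p = 0.00111). Its lowest replicate, the sixth, rests on 1 of its 2 probes because the other was missing there. Kif17, the homodimeric kinesin-2, spread from -0.78 to 0.70 around a mean of 0.16 ± 0.54 and did not pass (adjusted p = 0.564). Dync2li1, the light intermediate chain of the return motor dynein 2, ranged from 0.06 to 0.60 with a median of 0.36 and a mean of 0.36 ± 0.18 (adjusted p = 0.0092). Its lowest replicate, the second, also rests on 1 of 2 probes.

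Subunits of cytoplasmic dynein 1, the general minus-end motor of the cell, were divided. Dync1li1, a light intermediate chain, ranged from 0.23 to 1.12 with a mean of 0.59 ± 0.30 (1.50-fold, adjusted p = 0.00491). Dync1i2, an intermediate chain, ranged from 0.20 to 0.79 with a mean of 0.50 ± 0.22 (1.41-fold, adjusted p = 0.00365). Both genes were above 0 in all 6 replicates. The heavy chain Dync1h1 was at 0.18 ± 0.16 (adjusted p = 0.11) and the other intermediate chain, Dync1i1, which is largely neuronal, was at -0.09 ± 0.27 (adjusted p = 0.582). None of the 6 dynein light chain genes passed the test. Their means lay between -0.05 and 0.13 with a median of 0.03, close to that of all genes.

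Kinesin light chains, which tether cargo to conventional kinesin, were higher in 2 of 3 cases. Klc3 ranged from 0.51 to 0.82 with a mean of 0.64 ± 0.13 (1.56-fold, adjusted p = 0.000238). Klc4 ranged from 0.16 to 0.67 with a mean of 0.45 ± 0.22 (adjusted p = 0.00526). Klc1, measured by 3 probes, was at 0.04 ± 0.16 (adjusted p = 0.734). The heavy chains of the same motor did not follow. Kif5b was lower in all 6 replicates, from -0.63 to -0.09, with a mean of -0.35 ± 0.23 (1.28-fold lower, adjusted p = 0.0206), and lost its call without replicate 3, 5 or 6. Kif5a at -0.08 ± 0.12 and Kif5c at -0.02 ± 0.12, the neuronal heavy chains, did not pass.

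Among the other transport kinesins, 1 gene was higher and 1 lower. Kif9, a kinesin of the axonemal central apparatus in motile cilia and sperm, had a mean of 0.64 ± 0.31 (1.56-fold, adjusted p = 0.00344). Replicate 6 at 1.24 stood apart from the other 5, which lay between 0.41 and 0.62. Kif1c, a kinesin-3 that moves vesicles, ranged from -0.49 to -0.06 with a mean of -0.32 ± 0.16 (1.25-fold lower, adjusted p = 0.0121). The median of the 9 transport kinesins tested was -0.02, and Kif13a, Kif1b, Kif21a and Kif27 did not pass.

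The 7 mitotic kinesins included 1 call each way. Kif2a, a microtubule depolymerase that acts in neurons and at the ciliary base as well as in the spindle, ranged from 0.34 to 0.93 with a median of 0.77 and a mean of 0.70 ± 0.21 (1.63-fold, adjusted p = 0.00057). Kif23, a motor of cytokinesis, ranged from -0.59 to -0.11 with a mean of -0.32 ± 0.20 (1.25-fold lower, adjusted p = 0.02), and its call was lost without replicate 1, 3 or 5. Kif4, Kif2c, Kif20a, Kif18b and Kif22 did not pass. Beside these, of 21 measured markers of dividing cells 1 was higher and 10 were lower, with a median of -0.24 and replicate medians between -0.49 and -0.17. Their part in the Kif23 ratio was not tested.

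The tubulin genes stayed near 0 as a group, with a median of -0.01 over 14 genes. None of the 6 alpha and 2 gamma tubulin genes passed the test, and the alpha means lay between -0.16 and 0.27. Among beta tubulins, Tubb4b, a main tubulin of axonemes, was lower in all 6 replicates, from -0.51 to -0.23. Its mean was -0.34 ± 0.11 (1.27-fold lower, adjusted p = 0.00433). On the arrays with sighted RNA in Cy5 its mean was -0.015, where the median of all genes was 0.27. Tubb2b, a neuronal isotype, ranged from -0.39 to -0.13 with a mean of -0.27 ± 0.10 (1.20-fold lower, adjusted p = 0.0111). Tubb5, the most widely expressed isotype, was higher at 0.25 ± 0.16 (adjusted p = 0.0325), with replicate 5 just below 0 and its call lost without replicate 1, 3, 4 or 6. Tubb2a at -0.13 ± 0.11, Tubb4a at 0.01 ± 0.16 and Tubb6 at 0.06 ± 0.24 did not pass. Tubulin isotypes are close in sequence, so cDNA probes may cross-hybridise, which these files do not test. Neuron markers stood beside them with 3 of 10 higher, 0 lower and a median of 0.07.

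Of the Ttll enzymes, Ttll9, a member of the polyglutamylase branch, was higher in all 6 replicates, from 0.24 to 0.55, with a mean of 0.41 ± 0.12 (1.33-fold, adjusted p = 0.00192). Ttll3, a glycylase, was at 0.23 ± 0.20 (adjusted p = 0.0687), and Ttll6, Ttll12 and Ttll13 lay between 0.07 and 0.13 and did not pass. Neither axonemal dynein gene that could be tested passed. Dnaic1 was at 0.11 ± 0.17 and Dnah11 at 0.05 ± 0.17. Of 7 markers of multiciliated cells, 0 were higher and 1 was lower, with a median of -0.07. A list of motile axoneme genes, given below, shares genes with these markers. Of its 17 tested genes 6 were higher and 0 lower, with a median of 0.10.

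The dye carried by the sighted RNA shifted the eye ratios as a whole. The median of all genes was 0.27 on arrays with sighted RNA in Cy5 and -0.22 on arrays with it in Cy3, and a replicate averages 1 array of each kind. Of the 23 members called higher, 18 were above 0 in both orientations, and all 23 were above the median of all genes in both. The other 5 were below 0 with sighted RNA in Cy3, Kif9 at -0.04, Ttll9 at -0.08, Tubb5 at -0.12, Ift172 at -0.19 and Ift52 at -0.05. The 5 members called lower were below 0, and below the median of all genes, in both orientations. The calls were made on the mean of these same arrays, so these counts do not test them. Bbs5 stood at 2.40 and 1.89, Bbs9 at 2.44 and 1.70, Bbs2 at 1.44 and 1.14 and Bbs4 at 1.34 and 0.66 with sighted RNA in Cy5 and Cy3.

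**Figure D2:**
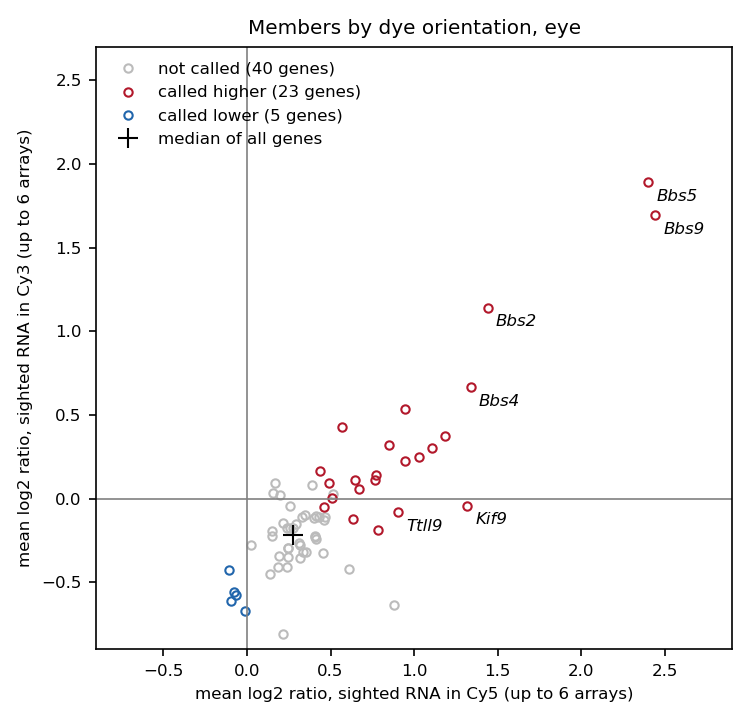
Members in the eye by dye orientation. Each circle is a gene, with its mean log2 ratio of sighted over control RNA on arrays with sighted RNA in Cy5 (horizontal) and in Cy3 (vertical), and the cross marks the median of all genes at 0.27 and -0.22. The 4 BBSome genes lie far above the cross on both axes, while Kif9 and Ttll9 are high in Cy5 and just below 0 in Cy3.

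Where a gene had several probes, the probes did not always give the same ratio. Of the 23 member genes with at least 2 probes tested in the eye, 4 had every probe called in 1 direction, and over all such genes this share was 10%. They were Ift81, Kif3b, Dync2li1 and Tubb4b. The 2 probes of Ift81 gave 0.48 ± 0.17 and 1.00 ± 0.21, and those of Kif3b gave 1.00 ± 0.21 (5 replicates) and 0.30 ± 0.11. These genes therefore rose on both probes, but the size of the rise depended on the probe.

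Another 3 genes had probes called in opposite directions, against 1.61% of all genes with at least 2 probes. For Dnaic1, an intermediate chain of axonemal outer-arm dynein, the probes gave 0.51 ± 0.24 and -0.30 ± 0.23. For Dynlt1b, a Tctex-type dynein light chain, they gave 0.43 ± 0.14 and -0.57 ± 0.39. For Kif2c, a mitotic depolymerase, they gave 0.34 ± 0.26 and -0.31 ± 0.25. The gene means near 0 of these 3 genes hide that disagreement, and the files do not show which probe reports the named gene. Ift122, Ift43 and Kif1c were called through the mean of 2 probes of which 1 was called alone, with Ift122 at 0.59 and 0.13, Ift43 at 0.46 and 0.12 and Kif1c at -0.54 and -0.10. For Ift172, at 0.46 (adjusted p = 0.0788) and 0.14 (adjusted p = 0.300), the mean was called and neither probe was.

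**Figure D3:**
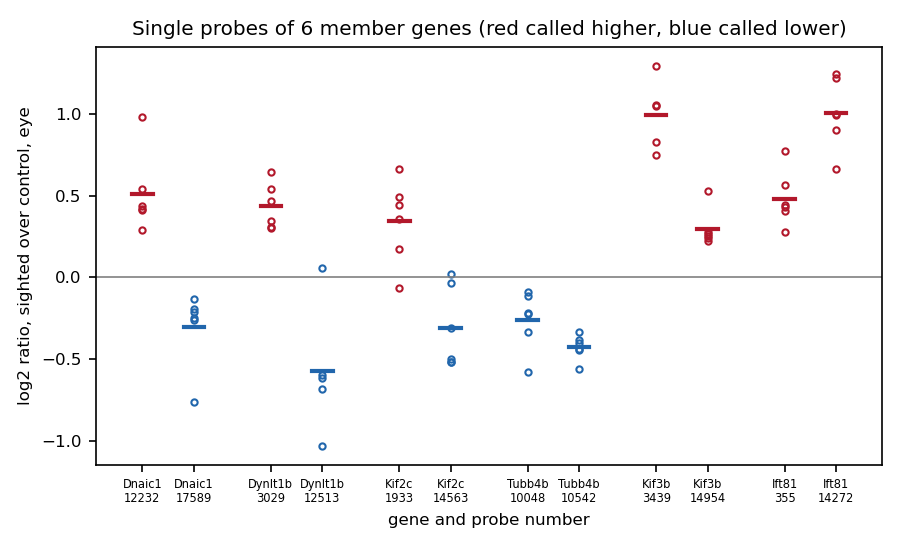
Single probes of 6 member genes in the eye. Each circle is the log2 ratio of sighted over control RNA in 1 replicate, each bar is the mean, and red and blue mark probes called higher and lower. In Dnaic1, Dynlt1b and Kif2c the means of the 2 probes lie on opposite sides of 0, whereas both means of Tubb4b lie below it and both of Kif3b and Ift81 above it.

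In the brain no member passed the test, 0 of 66, with 1 at an unadjusted p under 0.05. Of all genes and unnamed probes in the brain 0% were called higher and 0.00621% lower, and 4.08% had an unadjusted p under 0.05. The BBSome genes were flat there. Bbs5 ranged from -0.12 to 0.17 with a mean of 0.00 ± 0.13, Bbs9 from -0.34 to 0.41 with a mean of -0.02 ± 0.30, Bbs2 had a mean of 0.03 ± 0.12 and Bbs4 of 0.05 ± 0.20. The 11 IFT genes had a median of 0.01. The smallest p-values belonged to Tuba4a at -0.16 ± 0.16, Ift52 at 0.17 ± 0.17, Dync2li1 at -0.21 ± 0.24, Kif18b at 0.39 ± 0.53 and Kif2a at -0.21 ± 0.26, each with an adjusted p of 0.959.

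In the heart no member passed either, 0 of 60, with 1 at an unadjusted p under 0.05. Of all genes and unnamed probes in the heart 0% were called in either direction, and 8.17% had an unadjusted p under 0.05. Of the 103 member probes, 6 to 57 were missing on a heart array. The 1 member was Ift81, whose 4 replicates lay between 0.29 and 0.59 with a mean of 0.49 ± 0.14 (adjusted p = 0.568). Ttll3 at -0.57 ± 0.50 and Kif5a at -0.45 ± 0.29, both over 3 replicates, Dynlt3 at 0.47 ± 0.50 and Kif1c at 0.40 ± 0.41 had the next smallest p-values. Bbs5 was at 0.21 ± 0.09 and Bbs9 at 0.07 ± 0.36 over 3 replicates, Bbs2 at 0.23 ± 0.43 and Bbs4 at 0.24 ± 0.25 over 4.

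**Figure D4:**
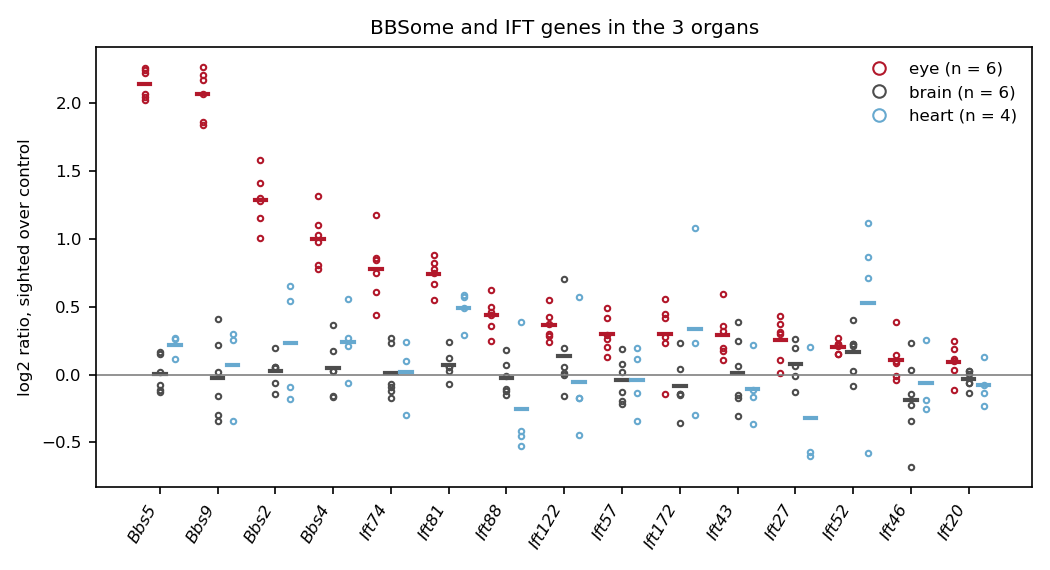
BBSome and IFT genes in the 3 organs. Each circle is the log2 ratio of sighted over control RNA in 1 replicate of eye, brain or heart, and each bar is the mean of an organ (up to 6, 6 and 4 replicates). The eye replicates of Bbs5, Bbs9, Bbs2 and Bbs4 lie above all brain and heart replicates, and those of Ift74 do too. The eye replicates of Ift81 and Ift88 lie above those of the brain and overlap with the heart, and those of the IFT genes to the right overlap with both organs.

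The differences between organs were tested directly, with a separate spread for each organ. Between eye and brain, 19 of 66 members had a higher ratio in the eye and 3 a lower one, against 11.3% and 7.14% of all 15499 genes, together 18.4%. Bbs5 differed by 2.14 ± 0.09 (SE, adjusted p = 4.59e-11), Bbs9 by 2.09 ± 0.13 (adjusted p = 3.15e-08), Bbs2 by 1.26 ± 0.10 (adjusted p = 3.22e-07), Bbs4 by 0.95 ± 0.12 (adjusted p = 1.86e-05) and Ift81 by 0.67 ± 0.09 (adjusted p = 3.72e-05). The difference was called higher for 5 of 11 IFT genes, Ift74, Ift81, Ift88, Ift57 and Ift172. It was also called for Kif3b, Kif2a, Kif9, Klc3, Klc4, Tubb5 and 4 of 5 cytoplasmic dynein chains. Of these chains, Dync1h1 was not called in the eye itself, and its mean was 0.18 in the eye and -0.13 in the brain. In 14 of the 66 every eye replicate lay above every brain replicate, against 7.1% of all genes, and in 0 of 66 every eye replicate lay below, against 4.06%. The 3 lower were Kif5b at -0.39, Tubb2b at -0.30 and Tubb4b at -0.29. Their number changed to 0 without eye replicate 5 or brain replicate 1, and to 1 without eye replicate 3, 4 or 6 or brain replicate 2, 4, 5 or 6.

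Between eye and heart, 5 of 60 members had a higher ratio in the eye and 0 a lower one, against 2.61% and 2.02% of all 12547 genes, together 4.64%. They were the 4 BBSome genes and Kif3b. Bbs5 differed by 1.93 ± 0.17 (SE, adjusted p = 0.00303), Bbs9 by 2.00 ± 0.22 (adjusted p = 0.00721), Bbs2 by 1.06 ± 0.21 (adjusted p = 0.0331), Bbs4 by 0.76 ± 0.17 (adjusted p = 0.042) and Kif3b by 0.67 ± 0.16 (adjusted p = 0.0491). Of these 5 calls, 0 were kept without heart replicate 1 or 2 and 1 without heart replicate 3. Without heart replicate 4, 2 were kept, and without eye replicate 1, 3 were kept. Without these heart replicates the Bbs5 difference itself stayed between 1.88 and 1.96. Ift81 did not pass the test between eye and heart, at 0.25 ± 0.15 (adjusted p = 0.349). In 9 of 60 members every eye replicate lay above every heart replicate, against 9.68% of all genes, and in 3 every one lay below, against 7.13%. The comparisons with brain and heart share the eye replicates.

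Other genes of the same pathways were counted from lists that do not overlap with the members, beside the eye background of 15.9% higher and 11% lower. These lists too were chosen with earlier results of these data known. Of 23 further genes of IFT, BBSome and cilium entry, 10 were higher and 3 lower with a median of 0.23. Unc119, the lipid-binding carrier of transducin, was at 2.86 ± 0.14, Mak, a kinase that limits ciliary length, at 1.63 ± 0.66, Wdr60, an intermediate chain of dynein 2, at 1.35 ± 0.19 and Arl3, the small GTPase that releases cargo from Unc119, at 1.28 ± 0.14. Of 23 genes of the connecting cilium, transition zone and basal body, 10 were higher and 1 lower with a median of 0.27. Pcare stood at 4.20 ± 0.35, Rpgrip1 at 2.78 ± 0.16, Fam161a at 2.42 ± 0.27 and Crocc, the rootletin of the ciliary rootlet, at 1.49 ± 0.17. Pcare, Rpgrip1 and Fam161a are retinal disease genes of the photoreceptor cilium. Several genes of these lists therefore had larger ratios than any member.

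The lists of motor adaptors and tubulin factors held calls in 1 direction only. Among 13 dynactin and dynein adaptor genes 3 were higher and 0 lower, Trak2 at 0.85 ± 0.10, Hook1 at 0.76 ± 0.14 and Trak1 at 0.32 ± 0.23. Among 11 other kinesin and adaptor genes 5 were higher and 0 lower, led by Rhot1 at 1.60 ± 0.19 and Rhot2 at 1.52 ± 0.15, the mitochondrial GTPases that dock kinesin. Clstn1, a kinesin light chain cargo, was at 0.81 ± 0.11 and Cenpe, a kinesin of the kinetochore, at 0.53 ± 0.26. Among 28 genes of tubulin folding, nucleation and modification 8 were higher and 0 lower, with Tbcc, a tubulin folding cofactor, at 1.00 ± 0.13, Svbp at 0.45 ± 0.38, Spast at 0.35 ± 0.21 and Sirt2 at 0.34 ± 0.21.

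Among 21 genes of microtubule-associated proteins 5 were higher and 2 lower with a median of 0.01. Map1b was at 0.96 ± 0.28, Mapre3 at 0.74 ± 0.20, Mapre2 at 0.72 ± 0.18 and Tppp at -0.31 ± 0.18. Among 17 genes of the motile axoneme 6 were higher and 0 lower with a median of 0.10. Ccdc113 was at 1.33 ± 0.09, Gas8, a subunit of the dynein regulatory complex, at 0.58 ± 0.10, Dnal4 at 0.50 ± 0.14 and the transcription factor Rfx1 at 0.33 ± 0.24. In brain and heart 0 genes of these 7 lists were called.

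Markers of other cell types in the eye moved too, and their part in the member ratios was not tested. All 3 measured cone markers were higher with a median of 0.33. Of 9 lens genes 8 were higher and 1 lower with a median of 0.56. Cornea and surface epithelium had 9 of 9 lower with a median of -1.06, skeletal muscle 8 of 9 lower and 1 higher with a median of -0.94, blood 4 of 4 lower with a median of -1.50, immune cells 7 of 9 lower with a median of -0.41 and astrocyte and Mueller glia 3 of 8 lower with a median of -0.28. Replicate medians lay between -1.76 and -0.75 for the cornea list, between -1.18 and -0.49 for the muscle list and between 0.08 and 0.87 for the lens list. The members called lower (Kif5b, Kif1c, Tubb4b, Tubb2b and Kif23) had the direction of the cornea, muscle, blood, immune, glia and dividing-cell lists. The BBSome genes and the 9 called IFT genes had that of the rod, cone and lens lists. Genes called lower or higher share that direction with every list that moved the same way, so this likeness tests nothing.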

How the data were processed

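The authors deposited log2 ratios of the 2 dyes of each array, per the file headers and values. How the arrays were scanned, corrected and normalized is not given in the sources used here. Eye arrays had medians from -0.061 to 0.535, so not all were centred. Repeated ceiling values above 15, 4170 in all with 20 among the member probes, were treated as missing. Ratios were turned to sighted over control by the dye labels. Brain array 3 is labelled Cy5 in both channels, and its sighted RNA was taken as Cy5. The source of brain array 5 is labelled only sighted.

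A replicate is the mean, per probe, of a pair of consecutive arrays with swapped dyes, both needed, and probes of a gene were then averaged. A gene could miss 1 replicate. Each organ was fitted on all genes with limma 3.58.1 in R 4.3.3, mean against 0, two-sided, Benjamini-Hochberg adjusted at 0.05. Organ differences used each organ's own moderated variance. The scripts were tested on simulated data.

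Members and lists were chosen with earlier results of these data known. Genes named were, per organ, the 10 largest calls each way with 1 sign in every replicate, up to 4 called members per role or else the 2 with the smallest p, the 5 smallest p per organ with few calls and per organ difference, genes with probes called oppositely, and up to 4 called genes per pathway list. Other members are named to account for all. Alternatives covered the replicate unit, centring, scaling, ceiling and missing values, probes, moderation, dye orientation, organ spread and each replicate left out. A fit of every array with a dye term was added after seeing the data. Names follow a RefSeq table (GRCm38.p6), which held all 71 members and changed 0 symbols. Protein sequences were not used here.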

Additional observations from a re-analysis of the deposited data

Results flagged for a closer look

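Of 37 sets of replicates of named members checked for a single replicate far from the rest, 2 held one. A check of this kind marks about 1 set in 20 by chance. In the eye, Kif9 stood at 1.24 in replicate 6 and between 0.41 and 0.62 in the other 5. In the brain, Dync2li1 stood at -0.69 in replicate 5 and between -0.23 and -0.01 in the other 5, and it was not called there.

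The ratio of several members differed between organs by a direct test of the difference. Eye minus brain was 2.14 for Bbs5, 2.09 for Bbs9, 1.26 for Bbs2, 0.95 for Bbs4 and 0.67 for Ift81. Eye minus heart was 1.93 for Bbs5, 2.00 for Bbs9, 1.06 for Bbs2, 0.76 for Bbs4 and 0.67 for Kif3b. The eye control pool came from other mice than the brain and heart pool, so organ and control mice cannot be told apart in these differences.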

How the results depend on the processing

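Of 809 comparisons of a result with an alternative, 728 kept direction and side of the threshold, 60 lost a call, 4 gained one and 17 changed sign, 8 of these with a single dye. The cause was not tested. With sighted RNA in Cy5 only, 41 members were called higher and 0 lower in the eye and 4 higher in the brain. Over all genes this gave 6072 higher and 508 lower of 16301 in the eye and 691 higher of 16552 in the brain. With sighted RNA in Cy3 only, 6 members were higher in the eye and 5 lower in the brain. Over all genes 553 of 16311 were then higher in the eye and 1232 of 16465 lower in the brain. Eye members called lower numbered 0 with every array on its own, 8 with single probes and 3 to 5 with a replicate left out (3 without replicate 3 or 5). Over all genes, 1121 of 16181 were lower with every array on its own, and 2114 of 19088 single probes were lower. For eye minus brain, a shared spread gave 12 higher and 1 lower, and leaving out a replicate 0 to 4 lower. Over all genes a shared spread there gave 956 higher and 608 lower of 12492. For eye minus heart, higher members numbered 2 with ceiling values kept, 3 with every replicate needed, 13 with a shared spread and 0 to 5 with a replicate left out. Lower members there numbered 1 with every replicate needed and 3 with a shared spread. Over all genes, 252 of 12781 were higher there with ceiling values kept. With every replicate needed 420 were higher and 442 lower of 6891, and with a shared spread 1639 and 1205 of 12492.

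In the eye with sighted RNA in Cy3 only, Kif9 was at -0.042, Dnaic1 at -0.047, Dnah11 at -0.18, Ttll9 at -0.081, Tubb5 at -0.12, Dynlt1b at -0.35 and Kif2c at -0.28. With centred arrays Dynlt1b was at -0.030 and Kif2c at -0.016. Dynlt1b was at -0.019 with every array on its own, also where the pair was a random block or dye a term. With a replicate left out Dynlt1b lay between -0.056 and 0.043 and Kif2c between -0.030 and 0.077. In the brain Tuba4a was at 0.063 with sighted RNA in Cy5 only. Over all genes in the eye, centring gave 2537 higher and 2410 lower calls against 2520 and 1739.

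With the replicate number as a replicate block, eye minus brain gave 1 lower member and eye minus heart 2 higher. Over all genes these counts were 826 of 15342 and 142 of 12630. The replicate numbers do not pair the samples. Same-numbered deviations correlated between -0.0175 and 0.0178 for eye and brain and between -0.0627 and 0.0298 for eye and heart. In 1 of 6 and 1 of 4 cases an eye sample correlated best with its own number.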
